A study of Mus musculus with 32 samples.

Results

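Aquaporins are channel proteins of cell membranes that let water through and, in some members of the family, glycerol or other small solutes as well. The genes described here are Aqp1, Aqp2, Aqp3, Aqp4, Aqp6, Aqp7, Aqp8, Aqp9 and Aqp11 of the mouse, taken by symbol from a table of m6A pulldown levels. They are 9 of its 27179 genes. Of other family members in the table, Aqp5 and Mip had 9 counts each over all 8 libraries and Aqp12 had 0, and these were left out.

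The study prepared brain, heart, kidney and liver of mice either as FFPE tissue (fixed in 10% formalin and embedded in paraffin) or as flash-frozen tissue, and compared how far both kinds of tissue can be profiled. The labels give no genotype, strain, sex or age. RNA was sheared by ultrasound for 20 min and pulled down with an antibody against m6A (N6-methyladenosine, a methyl mark on RNA), or kept as input. There are 32 labelled samples, 16 of m6A and 16 of input, in 16 groups that each have 2 runs. The table of m6A levels has 1 column for each organ and preservation, 8 in all, with no run number, so each column is treated as 1 library. Input was not analysed here, so a higher level of pulled-down RNA may mean more RNA or more methylation of it, and these cannot be told apart. In whole organs, fewer cells of a type and less RNA per cell cannot be told apart either.

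In the kidney, Aqp1 sits in the proximal tubule and thin descending limb and returns most of the filtered water. Aqp2, Aqp3 and Aqp4 work together in principal cells of the collecting duct: vasopressin brings Aqp2 to the luminal membrane, and Aqp3 and Aqp4 let the water leave on the other side. Aqp3, Aqp7 and Aqp9 are aquaglyceroporins, which also pass glycerol. Fat cells release glycerol through Aqp7 and hepatocytes take it up through Aqp9. Aqp4 is the main water channel of astrocyte endfeet in the brain, Aqp6 lies in vesicles of intercalated cells, Aqp8 in hepatocytes and other epithelia, and Aqp11 in the endoplasmic reticulum.

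The libraries held from 9603050 counts (FFPE brain) to 21523379 counts (frozen brain) assigned to genes. Ribosomal genes took from 50.4% of these (FFPE brain) to 79.7% (frozen heart). Outside ribosomal genes, FFPE liver was the smallest library, at 3050241 counts. Levels are log2 of CPM (counts scaled to a library size the authors normalised) with 0.5 count added, so that a level of 0 is about 1 CPM, and 3 counts correspond to levels from -3.29 in frozen brain to -0.86 in FFPE liver. The summed markers fitted the organ labels: neuron markers reached 955 and 1216 CPM in FFPE and frozen brain against at most 51.8 elsewhere, and cardiomyocyte markers 44148 and 37774 in FFPE and frozen heart against at most 238. Proximal tubule markers summed to 2673 and 1655 in FFPE and frozen kidney against at most 14.7 elsewhere, and hepatocyte markers to 27607 and 30588 in FFPE and frozen liver against at most 365. The highest neuron sum outside brain was that of frozen heart. Xist, the RNA of the inactive X chromosome, had levels of 7.56 to 9.47 in the 4 FFPE libraries and -2.64 to 0.28 in the 4 frozen libraries. All 5 sex-linked genes looked at had over 3 counts in every library, and only 1 of the 5 was called between FFPE and frozen tissue. The sex of the animals, or a mix of sexes, therefore cannot be told apart from preservation. This holds for the FFPE minus frozen values of the aquaporins as well.

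Organs were compared with a limma additive fit of organ and preservation over 14864 genes with a level above 0 in at least 2 libraries, with Benjamini-Hochberg adjustment over all of them. A gene is called at adjusted p under 0.05. An organ's estimate rests on its FFPE and frozen library. The spread behind the p-values is pooled for each gene over all organs, from how FFPE minus frozen values differed between organs. It does not measure how alike an organ's own libraries were, and the spread between animals stays unmeasured. The 9 aquaporins passed the filter, but Aqp2 and Aqp3 did so only through kidney, and Aqp8 and Aqp9 only through liver. Aqp6 needed its kidney libraries to pass, since FFPE brain was its only other library above 0. All of these genes had to differ between organs, and their counts of calls support nothing.

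**Figure D1:**
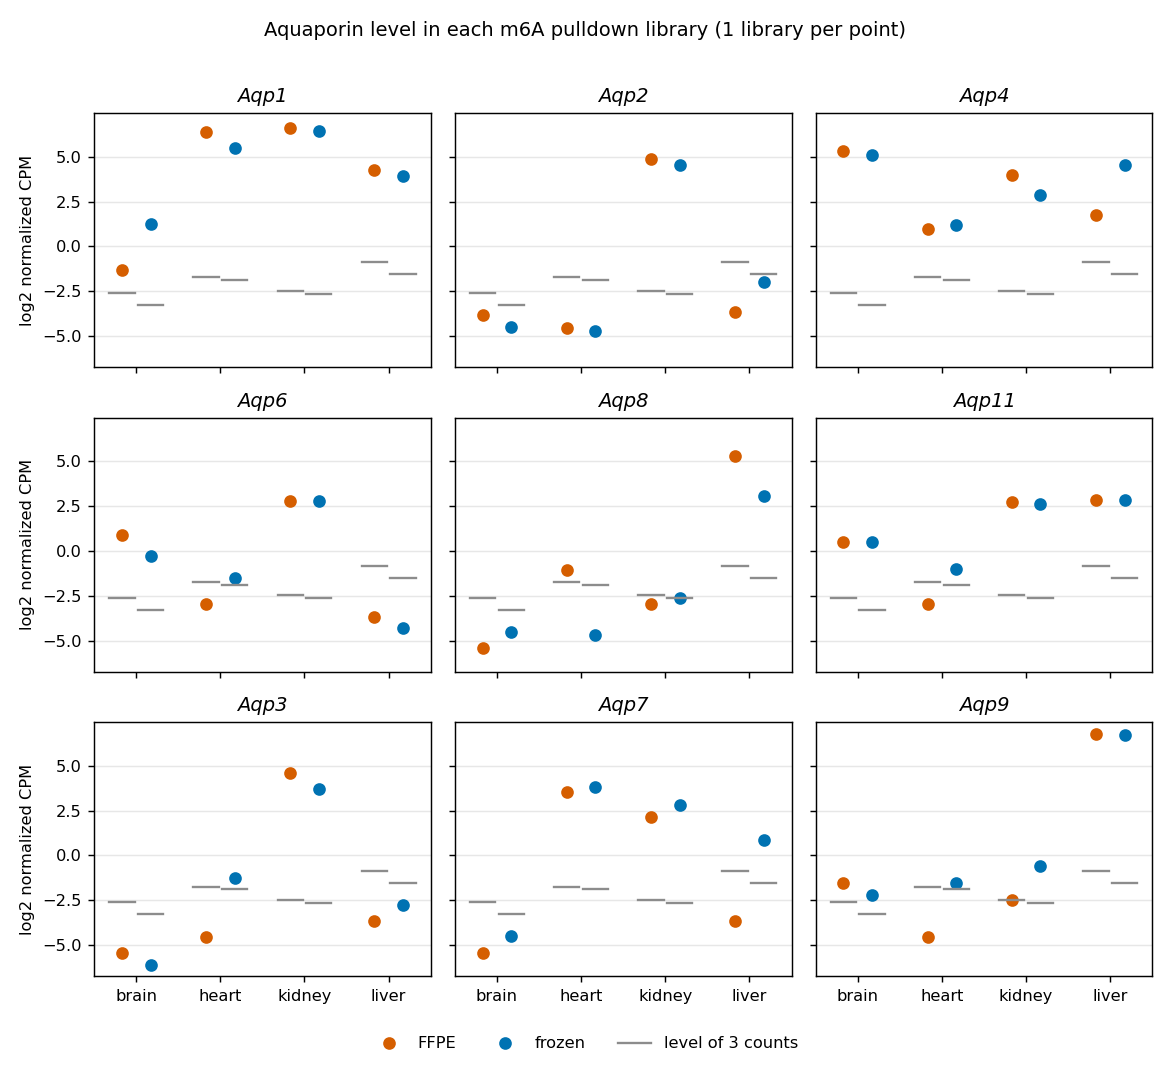
Level of each aquaporin in each library, as log2 CPM (y axis) by organ (x axis), FFPE left of frozen, with a grey bar at the level that 3 counts would give in that library. Aqp2 and Aqp3 stand above the bars in both kidney libraries, and Aqp8 and Aqp9 in both liver libraries, while Aqp4 is above them in all 8.

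Kidney carried the collecting duct pair Aqp2 and Aqp3 along with Aqp1, Aqp4, Aqp6, Aqp7 and Aqp11, each at 86 or more counts in both kidney libraries. Against the mean of the other 3 organs, 6 of 9 were called higher in kidney (Aqp1, Aqp2, Aqp3, Aqp6, Aqp7 and Aqp11), where 16.1% of all genes tested were called higher, and 0 were called lower, where 13.5% of all genes were. Without FFPE kidney, 3 were called, with Aqp1, Aqp7 and Aqp11 lost.

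Aqp2, the vasopressin-regulated channel, had a level of 4.86 in FFPE kidney and 4.55 in frozen kidney, from 566 and 513 counts. It had 1 count in each brain library, 0 in both heart libraries, and 0 and 2 in FFPE and frozen liver. Kidney thus held 99.6% of the Aqp2 counts, and no other organ exceeded 3 counts in a library. The kidney difference was 8.58 ± 0.80 on the log2 scale (SE, adjusted p = 0.000145). By counts, normalised kidney signal was 630 times that of the other organs together (95% counting interval 245 to 2317). Mean kidney signal was 102-fold above the level that 3 counts give in the less deep heart library, with counting error left out.

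Aqp3, the basolateral partner of Aqp2 that also passes glycerol, had a level of 4.59 in FFPE kidney and 3.72 in frozen kidney, from 469 and 288 counts. Outside kidney, frozen heart had 5 counts, frozen liver had 1, and the other 4 libraries had 0. The kidney difference was 8.11 ± 0.99 (SE, adjusted p = 0.000545), and kidney held 99.2% of the counts. Both brain libraries had 0, and mean kidney signal was 133-fold above the level that 3 counts give in the less deep brain library. The ratio of kidney to the other organs together was 295 (95% counting interval 135 to 806). Counting intervals here and below cover counting error only.

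The start regions of these kidney-restricted genes are shown because both were almost silent outside 1 organ. RefSeq on GRCm38.p6 places Aqp2 at chromosome 15, 99579056 to 99584545, and Aqp3 at chromosome 4, 41092724 to 41098183. The windows hold 250 bases before and 50 bases after the annotated start, 5′ to 3′ on the gene's strand, at chr15:99578806-99579105 (plus strand) and chr4:41098134-41098433 (minus strand). Capitals mark matches, on either strand, to the letters of the TATA box (TATAAA), the core of the cyclic AMP response element (TGACGT), the GATA factor motif (GATAAG), part of the HNF1 motif (GTTAAT), the forkhead motif (TGTTTAC) or a nuclear receptor site (AGGTCA).
Aqp2: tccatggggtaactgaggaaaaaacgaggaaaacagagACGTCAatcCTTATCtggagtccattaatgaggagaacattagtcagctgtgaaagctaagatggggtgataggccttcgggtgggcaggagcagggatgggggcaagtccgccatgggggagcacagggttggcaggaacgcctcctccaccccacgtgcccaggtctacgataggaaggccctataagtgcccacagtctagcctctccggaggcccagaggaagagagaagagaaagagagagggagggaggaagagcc
Aqp3: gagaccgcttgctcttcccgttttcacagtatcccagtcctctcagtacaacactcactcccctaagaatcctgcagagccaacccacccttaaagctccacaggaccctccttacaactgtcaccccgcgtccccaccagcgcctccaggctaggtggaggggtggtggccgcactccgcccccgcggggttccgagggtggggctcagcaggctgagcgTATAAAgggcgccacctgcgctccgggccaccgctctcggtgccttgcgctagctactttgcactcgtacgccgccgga
The Aqp2 window holds TGACGT at position -212 from the start and GATAAG at -203, both on the minus strand and without overlap. Among 32851 promoter windows of the same length, 7.51% hold TGACGT and 7.44% hold GATAAG. The Aqp3 window holds TATAAA at -29, and 13.6% of all windows hold it. These matches are descriptions of letters and were set against no binding data.

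Aqp2 and Aqp6 lie on chromosome 15 with Aqp5 between them, all within 26423 bases, with gaps of 6482 bases from Aqp2 to Aqp5 and 3638 bases from Aqp5 to Aqp6. Aqp5, a channel of glands and airways, had 3 counts in FFPE kidney and 0 in frozen kidney, while both of its neighbours were called higher in kidney. Aqp2, Aqp5 and Aqp6 overlap the long noncoding gene Gm34765, Aqp4 overlaps A830021F12Rik, and Aqp9 overlaps Gm32714. No source used here says whether counting used strand, so reads of these overlapping partners may be mixed.

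Aqp6, the vesicle channel of intercalated cells, had near-equal levels of 2.78 in FFPE kidney and 2.80 in frozen kidney, from 133 and 152 counts. Brain followed with 0.91 in FFPE and -0.26 in frozen tissue, from 40 and 28 counts. FFPE and frozen heart had 1 and 4 counts, and both liver libraries had 0. Its kidney difference was 4.76 ± 0.70 (SE, adjusted p = 0.00133). Mean kidney signal was 14.5-fold and mean brain signal 2.83-fold above the level that 3 counts give in FFPE liver, with counting error left out. Aqp6 was also the only member called lower in liver, at -4.29 ± 0.70 (SE, adjusted p = 0.00112). That comparison is against a mean that holds kidney, whose libraries Aqp6 needed to pass the filter. With 0 counts in both liver libraries, the size of the difference also rests on the count added to each value. Between heart and liver Aqp6 was not called (limma adjusted p = 0.135), while brain exceeded liver by 4.32 ± 0.85 (SE, adjusted p = 0.00248).

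Aqp1, the constitutive water channel, had its highest levels in kidney, at 6.62 in FFPE and 6.44 in frozen tissue, from 1917 and 1901 counts. Heart reached 6.41 in FFPE and 5.52 in frozen tissue, from 986 and 594 counts. Liver had 4.27 and 3.92 in FFPE and frozen tissue, and brain -1.34 and 1.23. The kidney difference was 3.19 ± 0.55 (SE, adjusted p = 0.00298), but without FFPE kidney it was 2.88 with adjusted p = 0.0578.

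Aqp11, the intracellular channel whose loss causes cystic kidneys in mice, had 2.73 in FFPE kidney and 2.63 in frozen kidney, and nearly the same in liver, at 2.84 in FFPE and 2.83 in frozen tissue. Brain had 0.51 and 0.50 in FFPE and frozen tissue, and FFPE and frozen heart had 1 and 6 counts. It was called higher in kidney (2.22 ± 0.49, SE, adjusted p = 0.00973) and in liver (2.44 ± 0.49, SE, adjusted p = 0.00362). The kidney call was lost without FFPE kidney (1.85, adjusted p = 0.200) and without frozen kidney (2.60, adjusted p = 0.0690). The liver call was lost without FFPE liver (2.12, adjusted p = 0.0536) and when libraries were scaled by their total gene counts (1.23, adjusted p = 0.0694).

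Aqp7 in kidney had 2.15 in FFPE and 2.79 in frozen tissue, from 86 and 151 counts, and was called higher against the other organs together (3.36 ± 0.83, SE, adjusted p = 0.0164). That call ended without FFPE kidney (2.72, adjusted p = 0.241), without frozen kidney (3.99, adjusted p = 0.0824) and without the trend in the variance model (adjusted p = 0.0564). Aqp4 in kidney had 3.98 in FFPE and 2.87 in frozen tissue, from 308 and 160 counts, and was not called there.

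Of 31 other genes of vasopressin-regulated water transport tested in kidney, 9 were higher, where 16.1% of all genes were, 7 were lower, where 13.5% were, and 15 were not called. Their median difference was 0.016 beside 0.0020 over all genes. Of the 8 principal cell markers, of which Avpr2, Scnn1b, Scnn1g and Gata3 are also in that list, 7 were higher in kidney, 0 lower and 1 not called, with a median of 6.13. The 3 largest differences were those of Slc14a2, the urea transporter of the inner medulla (7.66 ± 0.85, SE, adjusted p = 0.000329), of Scnn1b, a subunit of the epithelial sodium channel (7.10 ± 0.86, SE, adjusted p = 0.000520), and of Avpr2, the vasopressin receptor of the collecting duct (6.70 ± 0.94, SE, adjusted p = 0.00105). Avpr2 had 89 counts in FFPE kidney and 67 in frozen kidney and 0 in the 6 other libraries. Avpr2, Scnn1b, Scnn1g and Slc14a2 passed the filter only through kidney, so their kidney calls support nothing. Among the 7 lower genes were Prkaca, Prkacb, Prkar1a and Prkar2a, subunits of protein kinase A that every organ uses, named here after their values were seen.

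**Figure D2:**
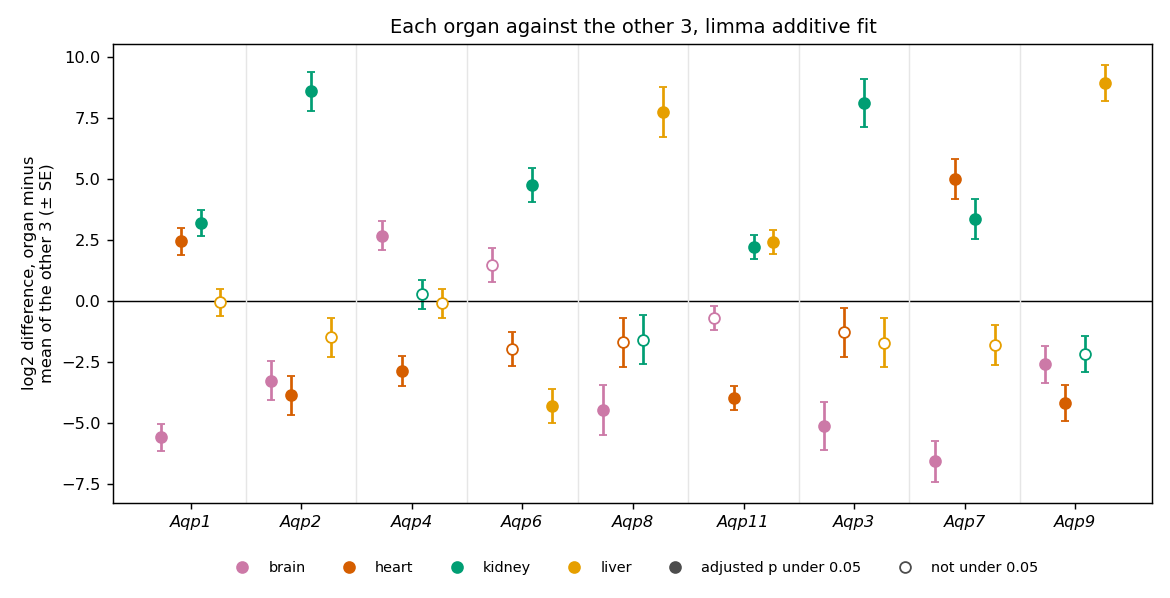
Difference between each organ and the mean of the other 3 (y axis, log2 scale, ± SE of the limma fit) for each aquaporin (x axis), with filled points where adjusted p was under 0.05. The highest points are kidney for Aqp2, Aqp3 and Aqp6, liver for Aqp8 and Aqp9, heart for Aqp7 and brain for Aqp4.

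The liver carried Aqp9, the hepatocyte glycerol channel, and Aqp8. In liver, 3 of 9 aquaporins were called higher (Aqp8, Aqp9 and Aqp11), where 20.1% of all genes were, and 1 was called lower (Aqp6), where 27.2% were.

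Aqp9 had a level of 6.80 in FFPE liver and 6.75 in frozen liver, from 707 and 1080 counts. Elsewhere it had 7 counts in each brain library, 0 and 4 in FFPE and frozen heart, and 3 and 14 in FFPE and frozen kidney. Liver held 98.1% of its counts, and the difference was 8.92 ± 0.75 (SE, adjusted p = 2.84e-05). By counts, liver was 380 times the other organs together (95% counting interval 272 to 547).

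Aqp8, which passes water and hydrogen peroxide, had a level of 5.31 in FFPE liver and 3.06 in frozen liver, from 250 and 83 counts. The other 6 libraries had at most 5 counts, in FFPE heart. Liver held 96.8% of its counts, with a difference of 7.73 ± 1.01 (SE, adjusted p = 0.000325) and a count ratio of 225 (95% counting interval 124 to 455).

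The start regions of both genes are shown as the liver-restricted pair, at chr7:123462044-123462343 for Aqp8 (plus strand) and at chr9:71163240-71163539 for the first of the 2 Aqp9 windows (minus strand), from RefSeq on GRCm38.p6 as above.
Aqp8: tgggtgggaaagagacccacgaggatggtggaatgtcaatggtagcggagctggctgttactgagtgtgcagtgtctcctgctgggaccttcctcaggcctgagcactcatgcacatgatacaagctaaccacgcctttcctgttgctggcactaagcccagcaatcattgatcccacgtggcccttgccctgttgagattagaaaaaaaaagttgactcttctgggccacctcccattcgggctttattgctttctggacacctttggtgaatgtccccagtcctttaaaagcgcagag
Aqp9: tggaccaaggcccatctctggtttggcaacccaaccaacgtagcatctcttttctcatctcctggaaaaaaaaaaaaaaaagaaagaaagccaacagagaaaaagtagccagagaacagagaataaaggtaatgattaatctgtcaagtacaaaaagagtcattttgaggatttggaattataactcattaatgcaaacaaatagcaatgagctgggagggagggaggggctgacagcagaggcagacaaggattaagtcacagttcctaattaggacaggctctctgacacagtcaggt
Neither window holds any of the letters searched. Of all windows, 7.10% hold the letters searched for HNF1, 3.65% those for forkhead factors and 16.3% those for nuclear receptors. RefSeq places Aqp8 at chromosome 7, 123462294 to 123468003, and Aqp9 at chromosome 9, 71110659 to 71167849. On the minus strand the 5′ end of that Aqp9 span is 71167849, so the Aqp9 window shown lies inside the gene and not at its 5′ end.

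Genes of glycerol release, uptake and use were mostly higher in liver. Of 15 tested, 9 were higher, where 20.1% of all genes were, 1 was lower, where 27.2% were, and 5 were not called, with a median difference of 1.47 beside -0.18 over all genes. The largest differences were those of Pck1 (9.04 ± 0.66, SE, adjusted p = 1.38e-05) and Fbp1 (8.38 ± 0.53, SE, adjusted p = 6.67e-06), enzymes of gluconeogenesis, and of Agpat2, an enzyme of triglyceride synthesis (4.54 ± 0.51, SE, adjusted p = 0.000145). In kidney, where Aqp3 was highest, 4 of the 15 were higher, where 16.1% of all genes were, 2 lower, where 13.5% were, and 9 not called, with a median of 0.12 beside 0.0020 over all genes. Pck1 (7.56 ± 0.66, SE, adjusted p = 0.000102), Fbp1 (7.03 ± 0.53, SE, adjusted p = 5.18e-05) and glycerol kinase Gk (3.14 ± 0.26, SE, adjusted p = 8.58e-05) led there.

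Genes of the endoplasmic reticulum and of polycystic disease, set beside Aqp11, were also mostly higher in liver, with 7 higher, 2 lower and 2 not called of 11 tested, where 20.1% of all genes were higher and 27.2% lower, and a median of 1.31 beside -0.18 over all genes. Hspa5, the chaperone BiP (1.97 ± 0.24, SE, adjusted p = 0.000200), led with Sec63 (1.66 ± 0.14, SE, adjusted p = 3.25e-05) and Prkcsh (1.60 ± 0.17, SE, adjusted p = 9.69e-05), proteins of import into the endoplasmic reticulum and of glycoprotein folding. The 2 lower genes were Pkd1 and Pkd2, which encode the polycystins. In kidney 3 were higher, where 16.1% of all genes were, 0 lower, where 13.5% were, and 8 not called. Their median was 0.22 beside 0.0020 over all genes.

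In brain only Aqp4 was called higher, 1 of 9 where 30.2% of all genes were, and 6 of 9 were called lower, where 26.4% of all genes were. Aqp4 had a level of 5.32 in FFPE brain and 5.11 in frozen brain, from 858 and 1180 counts. Liver was 1.76 in FFPE and 4.53 in frozen tissue, and heart 0.95 and 1.19 in FFPE and frozen tissue, so that brain stood above every other library, with frozen liver the nearest. The brain difference was 2.67 ± 0.60 (SE, adjusted p = 0.00478), and without FFPE brain it was 2.24 with adjusted p = 0.0870. Brain held 72.5% of the Aqp4 counts, and its count ratio was 3.90 (95% counting interval 3.59 to 4.25).

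Aqp1 (-5.58 ± 0.55, SE, adjusted p = 6.07e-05) and Aqp7 (-6.56 ± 0.83, SE, adjusted p = 0.000224) were lower in brain in every alternative run. Aqp2, Aqp3, Aqp8 and Aqp9 were called lower there as well, against a mean that holds the 1 organ in which each is high. Of these, Aqp2 (-2.73, adjusted p = 0.0820) and Aqp9 (-1.45, adjusted p = 0.251) were lost without frozen brain, and Aqp8 (-3.08, adjusted p = 0.0953) without FFPE brain. With libraries scaled by total gene counts the adjusted p was 0.0721 for Aqp2 and 0.0851 for Aqp9.

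Of 18 genes tested of the scaffold that holds Aqp4 at the endfoot, 8 were higher in brain, where 30.2% of all genes were, 7 were lower, where 26.4% were, and 3 were not called, with a median of 0.44 beside 0.073 over all genes. Mlc1 (6.10 ± 0.85, SE, adjusted p = 0.000374) and Hepacam (5.94 ± 0.60, SE, adjusted p = 6.65e-05), membrane proteins of astrocyte endfeet, and Kcnj10, the potassium channel Kir4.1 (5.03 ± 0.55, SE, adjusted p = 9.77e-05), were furthest up. In heart, where Aqp4 was lowest, 9 of the 18 were higher, where 15.9% of all genes were, 3 were lower, where 18.1% were, and 6 were not called, with a median of 0.92 beside -0.15 over all genes.

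In heart, 2 of 9 aquaporins were called higher (Aqp1 and Aqp7), where 15.9% of all genes were, and 4 were called lower (Aqp2, Aqp4, Aqp9 and Aqp11), where 18.1% were. Without FFPE heart, 3 of these 6 calls remained, with Aqp1, Aqp4 and Aqp7 lost. Aqp2 and Aqp9 were called lower in heart against a mean that holds the 1 organ in which each is high. Between brain and heart neither was called (limma adjusted p = 0.739 for Aqp2 and 0.323 for Aqp9). Aqp7, the glycerol channel of fat cells, capillaries and heart muscle, had 3.55 in FFPE heart and 3.85 in frozen heart, from 136 and 186 counts. It had 0 and 18 counts in FFPE and frozen liver and 0 and 1 in FFPE and frozen brain. The heart difference was 5.00 ± 0.83 (SE, adjusted p = 0.00207), and without FFPE heart it was 4.13 with adjusted p = 0.0570. Aqp1, a channel of capillary endothelium and red cells as well as kidney, differed by 2.44 ± 0.55 (SE, adjusted p = 0.00947), a call lost without FFPE heart (1.65, adjusted p = 0.172) and without the trend (adjusted p = 0.0637).

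Aqp4 was lower in heart by fit (-2.86 ± 0.60, SE, adjusted p = 0.00650), with 22 and 29 counts in FFPE and frozen heart. With a single heart library the call was lost, at -2.99 without FFPE heart (adjusted p = 0.0577) and -2.74 without frozen heart (adjusted p = 0.0532). Aqp11, with 1 count in FFPE heart and 6 in frozen heart, was lower by fit as well (-3.98 ± 0.49, SE, adjusted p = 0.000424). Of the glycerol genes in heart, 6 were higher, where 15.9% of all genes were, 5 lower, where 18.1% were, and 4 not called. Their median was 0.51 beside -0.15 over all genes. Pck1 (-7.89 ± 0.66, SE, adjusted p = 5.38e-05) and Fbp1 (-6.17 ± 0.53, SE, adjusted p = 5.96e-05) were furthest down and Lpl, the lipase that frees fatty acids at the capillary wall (5.73 ± 0.16, SE, adjusted p = 2.77e-07), furthest up.

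Each aquaporin's organs were put in order of mean level, which gives 27 neighbouring pairs. Of these, 12 were called and 15 were not. The share of all genes called in either direction was 28.6% for kidney against liver, 30.2% for heart against kidney, 41.5% for heart against liver, 45.5% for brain against heart, 47.6% for brain against kidney and 57.1% for brain against liver. Only liver over brain for Aqp1, kidney over liver for Aqp2 and liver over kidney for Aqp9 were called without each library in turn. Aqp2 and Aqp9 passed the filter only through the higher organ of these pairs, so their pairs had to differ.

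For Aqp1 the order was kidney (mean 6.53 ± 0.13, SD, n = 2), heart (5.96 ± 0.63), liver (4.09 ± 0.25) and brain (-0.05 ± 1.82). Kidney did not differ from heart beyond the spread (adjusted p = 0.580), nor heart from liver (adjusted p = 0.0542), while liver exceeded brain by 4.15 ± 0.67 (SE, adjusted p = 0.000849), or by 2.62 without FFPE brain. For Aqp4, brain (5.21 ± 0.15, SD, n = 2) did not differ from kidney (3.43 ± 0.79, adjusted p = 0.0744), nor kidney from liver (3.15 ± 1.96, adjusted p = 0.821). Liver exceeded heart (1.07 ± 0.17) by 2.08 ± 0.73 (SE, adjusted p = 0.0488), but by 0.51 without frozen liver (adjusted p = 0.382) and by 3.65 without FFPE liver. Without either brain or either heart library, that call was lost too, with adjusted p up to 0.166. Only 5 of 18 alternatives run kept the call. It was also lost without the filter on low levels (adjusted p = 0.0584), with a stricter filter (0.0506), with quantile normalization (0.0552), with libraries centred on medians (0.0550), scaled by counts outside ribosomal genes (1.61, adjusted p = 0.108), without the trend (0.149), with library quality weights (0.0738) and with precision weights (0.0528).

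For Aqp6, kidney (2.79 ± 0.02, SD, n = 2) exceeded brain (0.33 ± 0.83) by 2.46 ± 0.85 (SE, adjusted p = 0.0413), and brain exceeded heart (-2.24 ± 1.01) by 2.57 ± 0.85 (SE, adjusted p = 0.0368). The first call was lost without any 1 of the brain and kidney libraries (adjusted p up to 0.274, without frozen brain), and the second without any 1 of the brain and kidney libraries or FFPE heart (adjusted p up to 0.268, without FFPE brain; 1.55 without FFPE heart). Kidney over brain was also lost without the filter (adjusted p = 0.0792), with a stricter filter (0.0581) and scaled by total gene counts (1.94, adjusted p = 0.138). Brain over heart was lost without the filter (adjusted p = 0.0569), with a stricter filter (0.0520) and centred on medians (0.0625). For Aqp7, heart (3.70 ± 0.21, SD, n = 2) did not differ from kidney (2.47 ± 0.45, adjusted p = 0.414). Kidney exceeded liver (-1.39 ± 3.21) by 3.86 ± 1.02 (SE, adjusted p = 0.0214), by 1.90 without FFPE liver (adjusted p = 0.0783) and by 5.83 without frozen liver, and either kidney library left out also ended the call (adjusted p up to 0.200), as did leaving out the trend (0.0692). Liver exceeded brain (-4.97 ± 0.65) by 3.58 ± 1.02 (SE, adjusted p = 0.0153), by 1.61 without frozen liver (adjusted p = 0.117), by 5.54 without FFPE liver, by 3.12 without frozen brain (adjusted p = 0.0903) and by 1.76 scaled by total gene counts (adjusted p = 0.0722).

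For Aqp11, liver (2.84 ± 0.01, SD, n = 2) and kidney (2.68 ± 0.07) were not called different, at 0.16 ± 0.60 (SE, adjusted p = 0.880). That SE is pooled over all organs and is wider than the SD of these 2 organs. Kidney exceeded brain by 2.18 ± 0.60 (SE, adjusted p = 0.0162) and brain exceeded heart by 2.48 ± 0.60 (SE, adjusted p = 0.00966). The kidney call was lost without any 1 of the kidney or brain libraries (adjusted p up to 0.167, without FFPE kidney) and when scaled by total gene counts (1.65, adjusted p = 0.0736), and the brain call without FFPE brain (adjusted p = 0.0866) or FFPE heart (1.48, adjusted p = 0.0509). For Aqp3, kidney exceeded heart by 7.04 ± 1.22 (SE, adjusted p = 0.00276), and without FFPE kidney the adjusted p was 0.0546. For Aqp8, liver exceeded kidney by 6.99 ± 1.24 (SE, adjusted p = 0.00327) and by 6.26 without FFPE liver, where the adjusted p was just over the threshold. Below these top organs the remaining pairs of Aqp2, Aqp3, Aqp8 and Aqp9 were not called, most of them at a few counts.

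Preservation was compared over the 4 organs as blocks, FFPE minus frozen. With limma, 0 of 9 aquaporins were called higher in FFPE tissue and 0 lower, where 0.00673% of all genes were called higher and 0% lower, and no aquaporin had an unadjusted p under 0.05. The largest difference was that of Aqp7 (-1.60 ± 0.72, SE, adjusted p = 0.276), lower beyond counting error in FFPE kidney and FFPE liver but not in heart (-0.29, 95% counting interval -0.62 to 0.03), and with 0 and 1 counts in FFPE and frozen brain, which have no order. Aqp8 (1.16 ± 0.88, SE, adjusted p = 0.498) and Aqp9 (-1.04 ± 0.65, SE, adjusted p = 0.405) followed, and the other 6 had differences under 1 in size. With precision weights by count, Aqp8 was called higher in FFPE tissue (2.09 ± 0.37, SE, adjusted p = 0.0179).

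Within single organs, values below compare 1 FFPE with 1 frozen library, with no replicate check, so they compare libraries and not preservations. They also depend on the scaling. Total gene counts in place of the authors' library sizes move every gene's FFPE minus frozen value by 0.49 (brain), 0.35 (heart), -0.63 (kidney) and -0.66 (liver). Counts outside ribosomal genes move it by 0.08 (brain), -0.11 (heart), -0.30 (kidney) and -0.27 (liver).

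**Figure D3:**
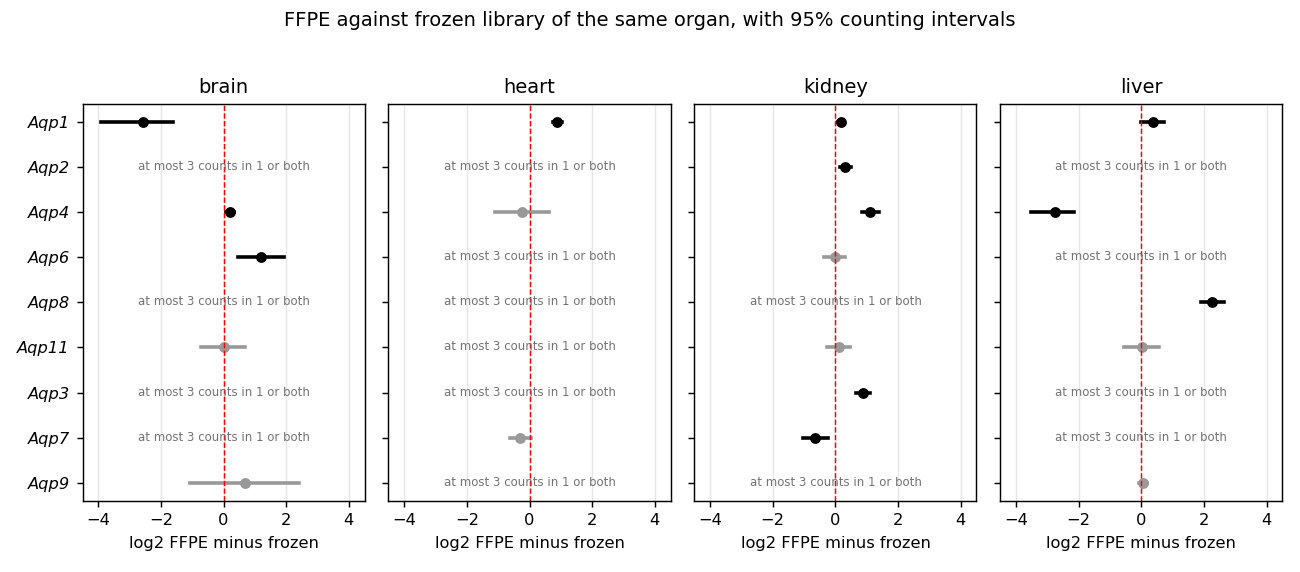
Difference between the FFPE and the frozen library of each organ (x axis, log2 scale) for each aquaporin (rows), with 95% counting intervals, drawn only where both libraries had over 3 counts. Black intervals leave out 0. Aqp1 in brain and Aqp4 in liver lie furthest to the left, and Aqp8 in liver furthest to the right.

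In brain, Aqp1 had 8 counts in the FFPE library against 80 in the frozen library, a log2 difference of -2.57 (95% counting interval -3.91 to -1.60). In heart Aqp1 was higher in FFPE tissue, by 0.89 (0.74 to 1.04), and brain and heart kept their directions under both scalings. The smaller values of 0.18 in kidney and 0.36 in liver did not: total gene counts gave -0.45 in kidney and -0.30 in liver, and counts outside ribosomal genes -0.12 in kidney and 0.09 in liver. Choroid plexus, the tissue that secretes cerebrospinal fluid, carries Aqp1 in the brain. Its 8 markers summed to 27.9 CPM in FFPE brain and 420.2 in frozen brain, with 7 and 8 of 8 over 3 counts and no marker at 0. Ttr, the transthyretin of choroid plexus, was at 4.31 in FFPE and 8.50 in frozen brain, the ageing-related gene Kl at 1.89 and 4.72, and Clic6 at 0.84 and 3.99. Endothelial markers moved the other way, at 42.2 in FFPE and 27.6 in frozen brain. The part of choroid plexus tissue in the Aqp1 difference was not tested.

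In heart, where Aqp1 was higher in FFPE tissue, endothelial markers summed to 384 in the FFPE and 301 in the frozen library, with all 8 over 3 counts in both. Erythroid markers summed to 225 in FFPE and 19.6 in frozen heart, with 5 of 6 over 3 counts in each. Hbb-bs, the beta globin, was at 7.14 in FFPE and 3.53 in frozen heart. Their part in the Aqp1 difference was not tested.

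In liver, Aqp4 had 21 counts in the FFPE library against 232 in the frozen library, a difference of -2.77 (95% counting interval -3.52 to -2.16), the opposite way from kidney (1.11, 0.83 to 1.40) and brain (0.21, 0.08 to 0.34), while heart (-0.23, -1.11 to 0.61) was within counting error. The values of liver, kidney and brain kept these directions under both scalings. Astrocyte markers summed to 496 in FFPE and 570 in frozen liver. Most of that sum came from Aldh1l1 (8.66 in FFPE and 8.93 in frozen liver), an enzyme that hepatocytes also express, and from Slc1a2, a glutamate transporter (6.19 in FFPE and 6.13 in frozen liver, from 461 and 704 counts). Gfap had 2 and 6 counts and Slc1a3 0 and 3 counts in FFPE and frozen liver. The part of any cell type in the Aqp4 difference was not tested.

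Aqp8 in liver went the other way, with 250 counts in FFPE and 83 in frozen tissue, a 4.77-fold difference (95% counting interval 3.71 to 6.19), while hepatocyte markers differed little, at 27607 in FFPE and 30588 in frozen liver. Aqp9, also a hepatocyte channel, differed by less than counting error between the liver libraries (0.05, -0.09 to 0.19), or by -0.61 scaled by total gene counts. Aqp7 had 0 counts in FFPE liver and 18 in frozen liver, where the 95% counting interval of frozen over FFPE liver began at 2.77-fold. The 7 adipocyte markers summed to 8.5 in FFPE and 190.5 in frozen liver, with 1 and 3 of 7 over 3 counts. That sum came from the lipid droplet genes Plin4 (3.08 in FFPE and 7.22 in frozen liver) and Cidec (-2.08 and 5.31), while Adipoq and Plin1, which define fat cells, had 0 counts in both. The part of these cell types in the Aqp7 and Aqp8 differences was not tested.

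In kidney, Aqp3 (0.87, 95% counting interval 0.66 to 1.09), Aqp4 and Aqp2 (0.31, 0.13 to 0.48) were all higher in the FFPE library. Scaled by total gene counts, Aqp3 (0.24) and Aqp4 (0.48) were still higher there, but Aqp2 was at -0.32. The 8 principal cell markers summed to 72.2 in FFPE and 46.8 in frozen kidney, all above 3 counts in both. Total gene counts move that marker difference by -0.63 on the log2 scale as well, which is about its whole size. Aqp6 did not differ beyond counting error (-0.02, -0.37 to 0.32), or was at -0.65 scaled by total gene counts, while intercalated cell markers summed to 115 in FFPE and 57.9 in frozen kidney. Aqp7 was lower in FFPE kidney (-0.64, -1.04 to -0.25), beside proximal tubule markers at 2673 in FFPE and 1655 in frozen kidney and markers of the loop of Henle at 706 and 1535. The part of these cell types in the differences was not tested. Aqp11 differed by 0.003 in brain, 0.10 in kidney and 0.01 in liver, with intervals that include 0 in each under the authors' scaling, while total gene counts put it at -0.53 in kidney and -0.65 in liver, beyond counting error in both.

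**Figure D4:**
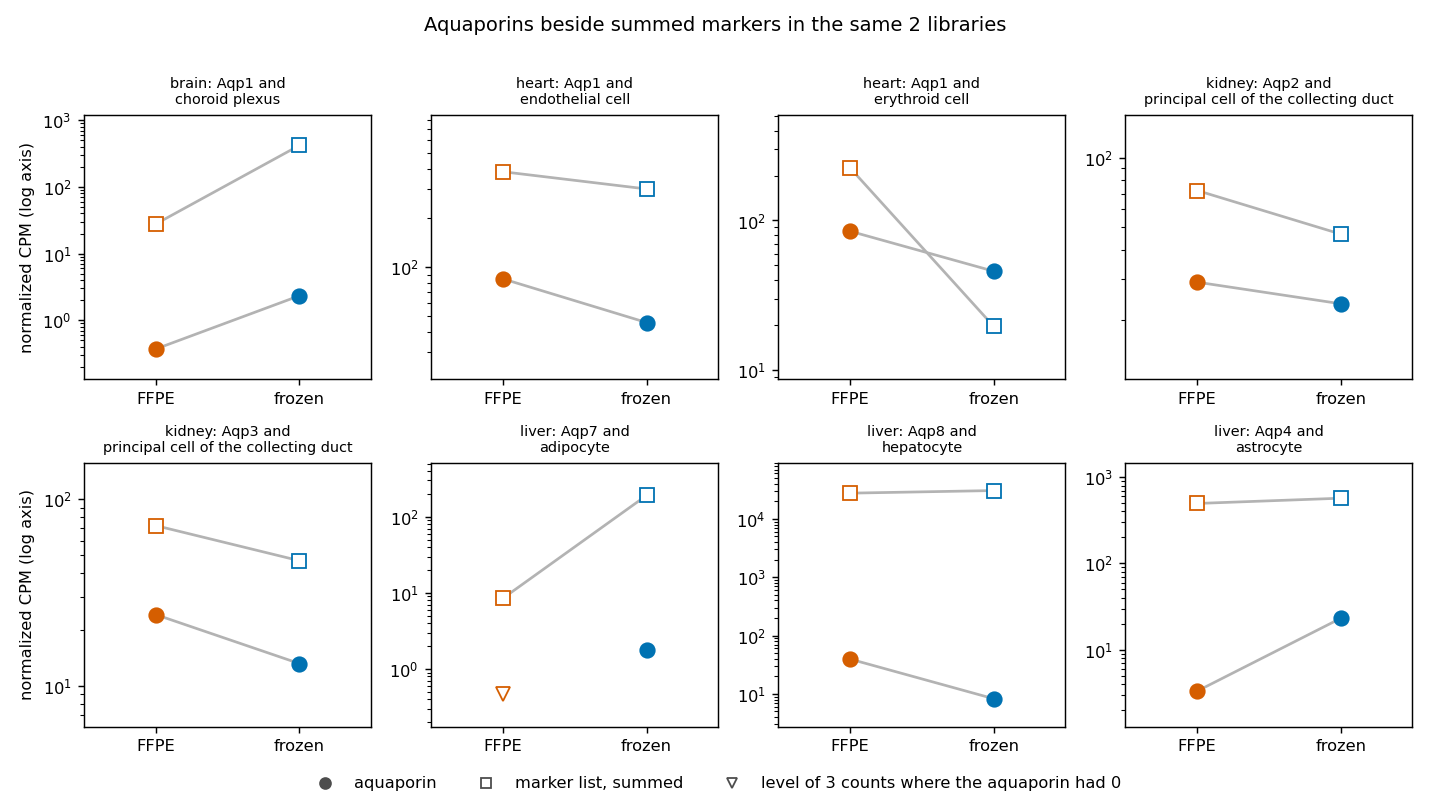
CPM (log axis) of an aquaporin (filled circles) and of the summed markers of a cell type that can carry it (open squares) in the FFPE and frozen library of 1 organ, with a triangle at the level of 3 counts where the aquaporin had 0. Aqp1 and choroid plexus markers are both lower in FFPE brain, and Aqp8 and hepatocyte markers part in liver. Aqp2, Aqp3 and principal cell markers are all higher in FFPE kidney under the authors' scaling. With total gene counts, Aqp2 is lower there and the principal cell marker difference is gone.

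For each aquaporin, the most alike genes were those with the smallest root mean square difference of centred log2 levels over the 8 libraries, among 9518 genes with a mean level of at least 1. For Aqp1 they were Gimap8 (0.60), H2-Aa (0.68) and Tnfaip2 (0.72). Aqp2 was nearest to Slc12a1, the sodium, potassium and chloride transporter of the thick ascending limb (0.92), Plau (0.92) and Lrp2 (1.10). For Aqp3, Lrp2 (1.12), Egf (1.23) and Cubn (1.28) were nearest, and Lrp2 and Cubn are the megalin and cubilin receptors of the proximal tubule. The collecting duct genes Avpr2, Scnn1b and Scnn1g had mean levels under 1 and were not searched. The genes nearest to Aqp4 were Trim2 (0.72), Sfxn5 (0.81) and Strbp (0.82), and those nearest to Aqp6 were Slc1a1 (0.71), Flrt1 (0.75) and Cdkl1 (0.82).

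Aqp7 was nearest to Fbxo40 (0.93), a muscle gene, then to the lipase gene Lpl (1.46) and to Fabp4 (1.57), the fatty acid carrier of fat cells and capillaries. Aqp8 was nearest to Sdc1 (1.36), Abcc3 (1.40) and Hsd3b7 (1.41), of which the last acts in bile acid synthesis. For Aqp9 the nearest were Itih2 (0.93), Ttpa (1.10) and Tdo2 (1.22), genes of hepatocytes. Aqp11 had the closest matches, Sfxn1 (0.46), Mob3b (0.47) and Slc9a3r1 (0.48). The values share 8 libraries in 4 organs, so genes of the same organ come out alike, and by Pearson correlation only Gimap8, Lrp2 (for Aqp3) and Sfxn1 were again among the nearest 3.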

How the data were processed

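Per the labels' protocols, RNA of FFPE and frozen mouse organs was sheared, pulled down with an m6A antibody and made into ribosome-depleted total RNA libraries. Per the submitters' processing notes, HISAT2, featureCounts and limma were used with mm10, and their settings and strand use are not given in these sources. The authors deposited log2 normalised counts, 1 column for each organ and preservation. Tested on the values, the scale is log2 CPM with 0.5 count added over an adjusted library size, and 100% of them turned back into whole counts within 0.001 (relative to 10000 for larger counts). That adjusted size ranged, relative to all gene counts of a library, from 0.426 in FFPE liver up to 2.24 in FFPE brain. A table of 8 columns for another mark matched no listed sample and was not used here.

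Values were fitted with limma 3.58.1 in R 4.3.3 (lmFit, eBayes with trend, organ plus preservation, 3 residual degrees of freedom), checked first on simulated data. Genes needed log2 above 0 in at least 2 libraries. Exact 95% intervals of counts came from scipy 1.17.1, and 25275 gene identifiers matched RefSeq (GRCm38.p6). Fitted differences of at least 1 on the log2 scale are given. The named genes are the 9 aquaporins, the 3 genes most alike to each, and the 3 called genes with the largest difference of each pathway list in the organ where its aquaporin is highest. The members and lists were chosen with earlier results of these data known, and the sex-linked list was added after the data were seen. Alternatives were other filters, scalings, added counts and variance models, and leaving out libraries. Levels of different genes were not compared, since no transcript lengths were used here.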

Additional observations from a re-analysis of the deposited data

Results flagged for a closer look

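Aqp1 differed between the FFPE and the frozen library in opposite directions by organ, at -2.57 on the log2 scale in brain and 0.89 in heart, 0.36 in liver and 0.18 in kidney, each counting interval leaving out 0. Between brain and heart the opposite directions held under each scaling tried, while kidney and liver turned negative when libraries were scaled by total gene counts (-0.45 in kidney and -0.30 in liver), as did kidney with counts outside ribosomal genes (-0.12). Aqp4 was at -2.77 in liver, against 1.11 in kidney and 0.21 in brain, each beyond counting error and with the same sign under each scaling tried. In heart Aqp4 was at -0.23, within counting error. Both genes were flagged because organs moved in opposite directions beyond counting error, and how many of all genes do so was not counted. The Aqp1 interval in liver began at 7.8e-05, and with libraries centred on medians the Aqp1 intervals in kidney and liver included 0. With 1 library for each organ and preservation, the difference between organs was not tested.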

How the results depend on the processing

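Many of the 23 organ calls were lost with a library left out, and none of the 23 changed direction under any alternative run. Apart from Aqp1 and Aqp7 in brain and Aqp11 in heart, the calls kept without each library in turn were of Aqp2, Aqp3, Aqp6, Aqp8 and Aqp9. Those genes had to differ between organs to pass the filter, so their keeping supports nothing. Against the other organs, aquaporins called in kidney numbered 3 to 7 with a library left out (3 without FFPE kidney, against 6), in heart 3 to 7 (3 without FFPE heart, against 6), in brain 5 to 8 and in liver 4 to 6. Scaling by total gene counts gave 8 calls in liver (2 higher and 6 lower) against 4 (3 higher and 1 lower), and in brain 2 higher and 4 lower against 1 higher and 6 lower. That scaling moved the median of all genes by -1.20 in liver, 1.22 in brain, -0.54 in heart and 0.52 in kidney, and scaling outside ribosomal genes by -0.78, 0.48, -0.15 and 0.44. The next values are FFPE minus frozen within organs, beyond counting error under the authors' scaling. Total gene counts reversed Aqp1 in kidney (-0.45 against 0.18) and liver (-0.30 against 0.36) and Aqp2 in kidney (-0.32 against 0.31). Counts outside ribosomal genes reversed Aqp1 in kidney (-0.12). Some values within counting error reversed too. Total gene counts put Aqp9 in liver (-0.61 against 0.05) and Aqp11 in kidney (-0.53 against 0.10) and liver (-0.65 against 0.01) beyond counting error. Counts outside ribosomal genes did so for Aqp9 in liver (-0.22). These scalings of the values within organs were chosen after seeing the data. Precision weights gave 1 call between FFPE and frozen tissue against 0. Neighbouring pairs called numbered 8 to 12 with a library left out and 9 to 15 otherwise, against 12. Among differences not called, Aqp7 in liver (-1.79) ranged from -3.76 to 0.17 and Aqp3 in heart (-1.29) from -3.04 to 0.47, with a library left out. The cause was not tested. No paired analysis was possible because the columns carry no run number. Comparing levels between genes per length, and the order of organs without both heart libraries, were not run. Levels at or below 3 counts have no order, and 1 library for each organ and preservation leaves the spread between animals unmeasured.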
